A study of Mus musculus with 5 samples.

Results

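The 9 genes described here encode the signalling machinery of striatal projection neurons, the inhibitory output neurons that make up most of the striatum. They were taken by gene symbol from a list of such genes, which was chosen with earlier results of these data known. All 9 were found among the 51912 gene rows of the authors' table. They comprised the dopamine receptor genes Drd1 and Drd2, the adenosine receptor gene Adora2a, the orphan receptor gene Gpr6, the regulators Rgs9 and Rasd2, the phosphodiesterase genes Pde10a and Pde1b, and Ppp1r1b, which encodes DARPP-32. All 9 belonged to the 17420 genes with an adjusted p.

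Striatal projection neurons come in a pair of classes. Direct pathway neurons carry the dopamine receptor DRD1, which raises cyclic AMP through the G protein Golf, and indirect pathway neurons carry DRD2, which lowers it, together with the adenosine receptor ADORA2A, which raises it. Cyclic AMP activates protein kinase A, which turns DARPP-32 into an inhibitor of protein phosphatase-1, and phosphodiesterases end the signal. The striatum lies in the territory of the middle cerebral artery and is commonly injured when that artery is occluded with a filament.

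The study compared C57BL/6 mice after a sham procedure (2 libraries) with C57BL/6 mice after stroke (3 libraries), by sequencing of polyadenylated RNA. For the stroke, a coated filament blocked the middle cerebral artery for 30 min, and a fall in blood flow of 80% or more was required. A motor score was taken at 24 h. No transgene or gene deletion is named for either group. The labels do not describe the sham procedure, the tissue taken, the age of the mice or when they were sampled. Nothing states that each library came from its own mouse, so p-values measure the spread between these samples, which may in part be technical.

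The authors' table gives a mean, a fold change and a standard error per gene, and no values per library. Whole reads per library were recovered from these for 15145 genes, among them all 9 described here. Normalised reads below are such reads divided by the library's size factor, a measure of its relative depth. The libraries are lettered by size factor from the largest, sham A (0.945) and sham B (0.734), and stroke A (1.16), stroke B (1.13) and stroke C (1.12). Which of them carries which replicate number could not be determined. The labels and the table do not state the total reads of a library. The recovered reads of Gpr6, the least abundant of the 9, were 317 and 181 in the sham libraries and 413, 284 and 159 in the stroke libraries.

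Sham A stood apart from the other libraries in markers of tissue outside the striatum. Ttr, the transthyretin gene that marks choroid plexus, had 12947 normalised reads in sham A, 69 in sham B and 15 to 25 in the stroke libraries. The 5 choroid plexus markers summed to 14346 normalised reads in sham A, against 274 in sham B and 374 to 386 in the stroke libraries. For the 5 measured hypothalamic neuropeptide genes the sum was 2008 in sham A and 17.7 in sham B. It was 950, 38.9 and 192 in stroke A, B and C. Most of the sum in stroke A was Pomc, which did not single out sham A. Pomc had 495 and 12.3 normalised reads in sham A and B, and 934, 19.4 and 174 in stroke A, B and C. Avp, Oxt, Pmch and Hcrt were highest in sham A, and Hcrt was at 0 in sham B. Sham B was in turn the highest in cortical markers. The 8 cortical glutamatergic markers with recovered reads summed to 25533 there, 15417 in sham A and 17919 to 21732 in stroke. Rorb, a cortical layer and thalamic transcription factor, had 4720 in sham B and 1114 in sham A. The oligodendrocyte sum of 3 genes was 13073 in sham A and 6338 in sham B, and 8586 to 9409 in stroke. The part of these differences in the results below was not tested, and the limma fold changes of the 9 genes, and of other genes that a result turns on, are therefore given also without single libraries. A fit without 1 sham library assumes that the lone sham library would vary as the stroke libraries do.

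The RefSeq promoter table (build GRCm38.p6) held 11 promoters of 7 of the 9 genes, and Ppp1r1b and Adora2a were not matched. The 250 bases before the start site are printed for the 3 receptor genes of the set that it holds and for Rgs9, because receptors of both neuron classes and a regulator common to both varied together across the stroke libraries, as described below. Capitals mark the motifs found on either strand, which are the GC box, the TATA box and the cyclic AMP response element. The GC box was searched for as the letters GGGCGG, and the TATA box by its letters TATAAA. The letters of the cyclic AMP response element are TGACGTCA. A motif on the opposite strand appears as its reverse complement. The Drd1 promoter shown is chr13:54054781-54055030 on the minus strand, and the other Drd1 start in the table held none of these motifs. The others are Drd2 at chr9:49340153-49340402 (plus strand), Gpr6 at chr10:41072291-41072540 (minus strand) and Rgs9 at chr11:109298182-109298431 (minus strand).
Drd1: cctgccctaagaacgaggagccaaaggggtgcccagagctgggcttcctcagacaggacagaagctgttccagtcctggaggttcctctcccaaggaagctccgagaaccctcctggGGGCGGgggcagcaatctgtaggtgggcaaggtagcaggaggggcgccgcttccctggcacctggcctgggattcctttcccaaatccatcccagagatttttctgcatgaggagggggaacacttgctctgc
Drd2: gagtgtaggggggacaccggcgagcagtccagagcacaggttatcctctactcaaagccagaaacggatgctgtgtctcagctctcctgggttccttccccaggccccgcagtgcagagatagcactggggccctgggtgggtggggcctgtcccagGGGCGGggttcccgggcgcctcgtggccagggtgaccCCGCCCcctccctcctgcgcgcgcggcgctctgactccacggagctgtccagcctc
Gpr6: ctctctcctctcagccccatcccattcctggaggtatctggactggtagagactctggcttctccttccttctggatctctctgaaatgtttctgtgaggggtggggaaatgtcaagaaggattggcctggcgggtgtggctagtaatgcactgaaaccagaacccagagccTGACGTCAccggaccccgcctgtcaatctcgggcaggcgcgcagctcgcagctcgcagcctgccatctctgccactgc
Rgs9: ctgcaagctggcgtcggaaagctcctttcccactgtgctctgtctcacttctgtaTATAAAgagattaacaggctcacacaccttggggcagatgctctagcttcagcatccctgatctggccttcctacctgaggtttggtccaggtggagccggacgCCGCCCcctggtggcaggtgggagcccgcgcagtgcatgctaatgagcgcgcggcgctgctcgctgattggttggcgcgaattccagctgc
The Gpr6 promoter held the full cyclic AMP response element, starting 78 bases before the start site. This motif was present in 508 of 32851 promoters of the same length in the table (1.55%), and in 1 of the 11 promoters of these genes. Its first 5 bases, TGACG, which overlap the full motif, were in 17.8% of all promoters and again only in the Gpr6 promoter among the 11. The GC box was in 5 of the 11 and in 32.7% of all promoters, and TATAAA in 1 of the 11 and in 12.4%. The promoters printed had a GC content of 58.4% (Gpr6) to 68.8% (Drd2), against a median of 52.4% over the table. A match describes these letters only.

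None of the 9 genes passed the test between stroke and sham. In the authors' deposited table (DESeq2 Wald test, Benjamini-Hochberg adjusted p below 0.05), 0 of 9 were called, where 1.56% of all tested genes were called (0.775% higher and 0.786% lower in stroke), and 0 of 9 had an unadjusted p below 0.05, against 10.5% of all tested genes. Their adjusted p ranged from 0.855 for Rgs9 to 0.997 for Drd1. Fold changes were positive for 5 genes and negative for 4, with a median log2 fold change of 0.02, beside a median of -0.02 over all tested genes and 47.2% of them positive. A separate fit with limma on the log2 of recovered normalised reads plus 1 also called 0 of 9, with 0 at an unadjusted p below 0.05, where 7.49% of 15145 genes had such a p and 3 (0.0198%) were called. In all 9 genes the values of the stroke libraries overlapped those of the sham libraries, whereas the groups did not overlap in 24.7% of the 15145 genes (stroke above sham in 12.8%, below in 11.9%). In bulk tissue, fewer cells of a type and less RNA per cell cannot be told apart.

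**Figure D1:**
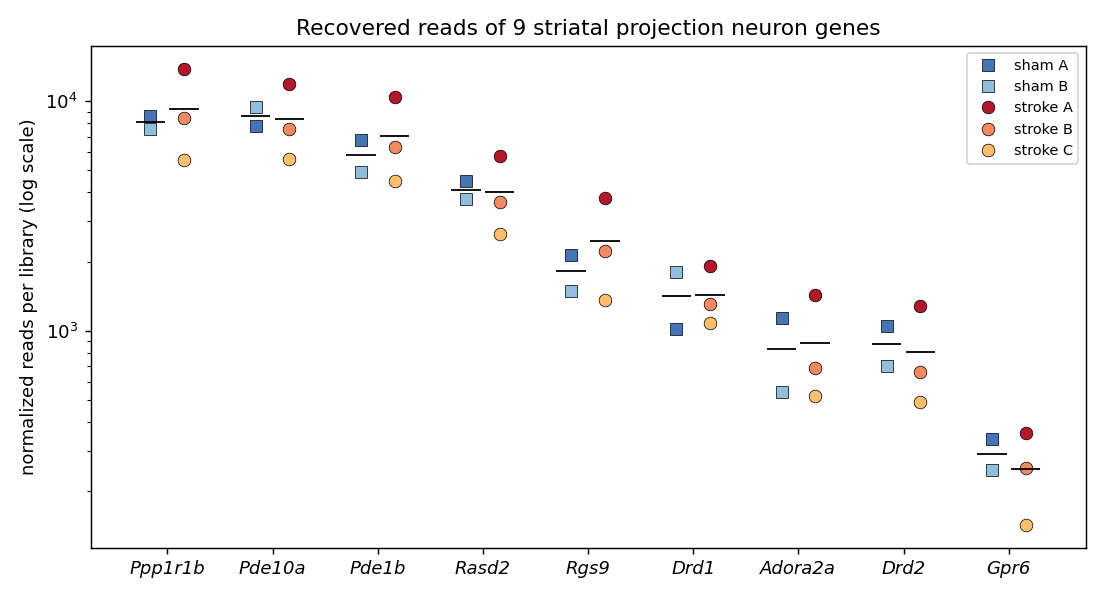
Normalised reads (log scale) of the 9 striatal projection neuron genes in each library, with squares for the 2 sham libraries, circles for the 3 stroke libraries and short lines for the group means. Stroke A is the highest and stroke C the lowest of the stroke libraries for every gene, and the sham values fall within or overlap the stroke range.

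Drd1 encodes the dopamine receptor of direct pathway neurons (ENSMUSG00000021478, build GRCm38, chr13:54051183-54055705, minus strand). It had 1017 and 1804 normalised reads in sham A and sham B, and 1912, 1310 and 1081 in stroke A, B and C. Sham A was the lowest of the 5 libraries and sham B the second highest, so the sham pair spanned most of the stroke range. In the authors' deposited table the log2 fold change was 0.02 with a standard error (SE) of 0.35, a fold of 1.02 with a 95% interval of 0.632 to 1.64 (DESeq2, adjusted p = 0.997). The limma estimate of 0.04 became -0.37 without sham A and 0.45 without sham B.

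Drd2 encodes the dopamine receptor of indirect pathway neurons, and is also made by dopamine neurons as an autoreceptor (ENSMUSG00000032259, chr9:49340627-49408177, plus strand). Its normalised reads were 1047 and 702 in sham A and B, and 1276, 663 and 491 in stroke A, B and C. Here sham A was above 2 of the 3 stroke libraries and sham B lay between stroke A and stroke B. The log2 fold change in the authors' deposited table was -0.11 (SE 0.42), a fold of 0.926 with a 95% interval of 0.524 to 1.64 (DESeq2, adjusted p = 0.988). Slc6a3, the dopamine transporter gene of midbrain dopamine neurons, had 325 normalised reads in sham A and 2.7 in sham B, with 6.9, 15 and 11 in stroke A, B and C. Its part in the Drd2 value of sham A was not tested. Without sham A the limma estimate of Drd2 moved from -0.20 to 0.09.

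Adora2a encodes the adenosine receptor of indirect pathway neurons (ENSMUSG00000020178, chr10:75316877-75334784, plus strand). Its normalised reads were 1130 and 538 in sham A and B, and 1434, 690 and 518 in stroke A, B and C. Sham A lay between stroke A and stroke B, and sham B was near stroke C. Its log2 fold change in the authors' deposited table was 0.08 (SE 0.47), the largest SE of the 9, a fold of 1.05 with a 95% interval of 0.554 to 2.01 (DESeq2, adjusted p = 0.990). The limma estimate of 0.04 became 0.57 without sham A and -0.50 without sham B.

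Gpr6 encodes a receptor that activates adenylyl cyclase without a known bound ligand and is found mostly in indirect pathway neurons (ENSMUSG00000046922, chr10:41069977-41072285, minus strand). It had 336 and 247 normalised reads in sham A and B, and 357, 251 and 142 in stroke A, B and C. Stroke C alone was below both sham libraries. The log2 fold change in the authors' deposited table was -0.22 (SE 0.42), a fold of 0.859, and its 95% interval of 0.484 to 1.52 was the only one of the 9 to reach past a 2-fold fall (DESeq2, adjusted p = 0.957).

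Reads of the 3 indirect pathway receptor genes relative to Drd1 differed more between the sham libraries than between any stroke libraries. The ratio of Drd2 to Drd1 was 1.03 in sham A and 0.389 in sham B, and 0.667, 0.506 and 0.454 in stroke A, B and C. Adora2a to Drd1 was 1.11 and 0.298 in sham A and B, and 0.750, 0.526 and 0.479 in stroke. Both ratios in all 3 stroke libraries thus lay between the sham values. Gpr6 to Drd1 was 0.330 and 0.137 in sham, and 0.187, 0.192 and 0.132 in stroke. Within the indirect pathway the ratios were closer together, with Adora2a to Drd2 at 1.08 and 0.767 in sham and 1.12, 1.04 and 1.05 in stroke. Gpr6 to Drd2 was 0.321 and 0.351 in sham and 0.280, 0.379 and 0.290 in stroke. These are ratios of reads not divided by transcript length, so they compare libraries and not the levels of the genes.

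**Figure D2:**
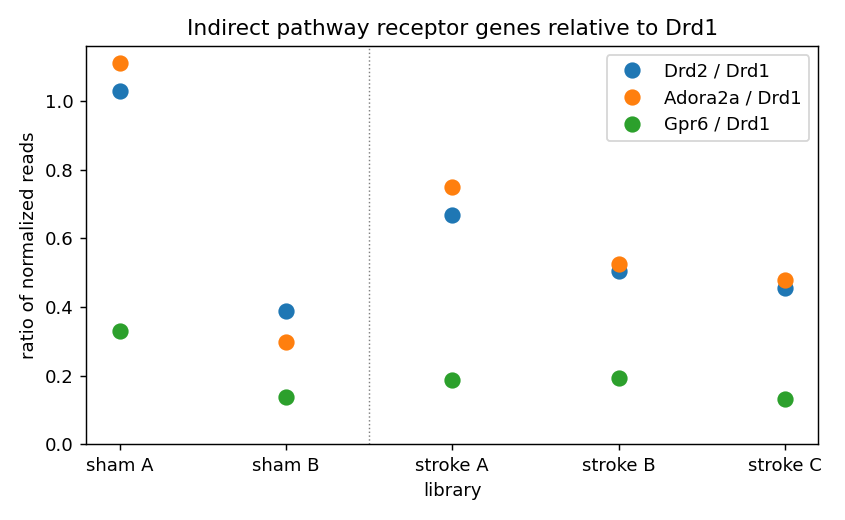
Ratio of normalised reads of Drd2, Adora2a and Gpr6 to those of Drd1 in each library, with sham left and stroke right of the dotted line. Drd2 over Drd1 is 1.03 in sham A and 0.389 in sham B, and the 3 stroke libraries lie between these values.

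Drd1 and the indirect pathway receptor genes differed in opposite directions between sham A and sham B. Drd1 was lower in sham A than in sham B, as was Pde10a, while the other 7 genes were higher in sham A, as were 53.3% of 10209 recovered genes with a mean of at least 100. All 5 direct pathway markers listed for comparison (Tac1, Pdyn, Isl1, Slc35d3 and Ebf1) were higher in sham A than in sham B, the opposite of Drd1. Of the 8 cortical glutamatergic markers with recovered reads, 6 were lower in sham A. Whether cortical tissue contributed to the Drd1 reads was not tested.

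Rgs9 encodes a protein that speeds the return of Gi and Go proteins to their inactive state and is enriched in striatum and retina (ENSMUSG00000020599, chr11:109225355-109298129, minus strand). Its normalised reads were 2133 and 1493 in sham A and B, and 3780, 2220 and 1362 in stroke A, B and C. Stroke A and B were above both sham libraries and stroke C was below both. This gene had the largest estimate of the 9, a log2 fold change in the authors' deposited table of 0.44 (SE 0.41), a fold of 1.35 with a 95% interval of 0.775 to 2.36 (DESeq2, adjusted p = 0.855). Without stroke A the limma estimate moved from 0.34 to -0.038, and without stroke C to 0.70.

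Rasd2 encodes Rhes, a small GTPase of striatal neurons (ENSMUSG00000034472, chr8:75213944-75224113, plus strand). It had 4492 and 3731 normalised reads in sham A and B, and 5782, 3647 and 2639 in stroke A, B and C. Stroke A was above and stroke B and C were below both sham libraries. The fold was 0.978 with a 95% interval of 0.614 to 1.56 in the authors' deposited table (log2 -0.03, SE 0.34; DESeq2, adjusted p = 0.993).

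Pde10a encodes the phosphodiesterase that breaks down cyclic AMP and cyclic GMP in both classes of projection neuron (ENSMUSG00000023868, chr17:8525372-8986648, plus strand). Its normalised reads were 7787 and 9427 in sham A and B, and 11928, 7520 and 5585 in stroke A, B and C. Stroke A was above both sham libraries, and the other two stroke libraries were below both. Its log2 fold change in the authors' deposited table was -0.04 (SE 0.34), a fold of 0.969 with a 95% interval of 0.614 to 1.53 (DESeq2, adjusted p = 0.991).

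Pde1b encodes a phosphodiesterase switched on by calcium and calmodulin (ENSMUSG00000022489, chr15:103503034-103530052, plus strand). It had 6764 and 4889 normalised reads in sham A and B, and 10372, 6283 and 4476 in stroke A, B and C. Stroke B lay between the sham libraries, with stroke A above and stroke C below both. The fold was 1.21 with a 95% interval of 0.735 to 1.99 in the authors' deposited table (log2 value 0.27, SE 0.37; DESeq2, adjusted p = 0.925).

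Ppp1r1b, which encodes DARPP-32, was the most abundant of the 9 (ENSMUSG00000061718, chr11:98348404-98357796, plus strand). Its normalised reads were 8585 and 7580 in sham A and B, and 13834, 8447 and 5545 in stroke A, B and C, a stroke mean of 9275 ± 4206 (SD, n = 3). The sham libraries were close together, with stroke B between them. The log2 fold change in the authors' deposited table was 0.20 (SE 0.37), a fold of 1.15 with a 95% interval of 0.696 to 1.89 (DESeq2, adjusted p = 0.956).

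**Figure D3:**
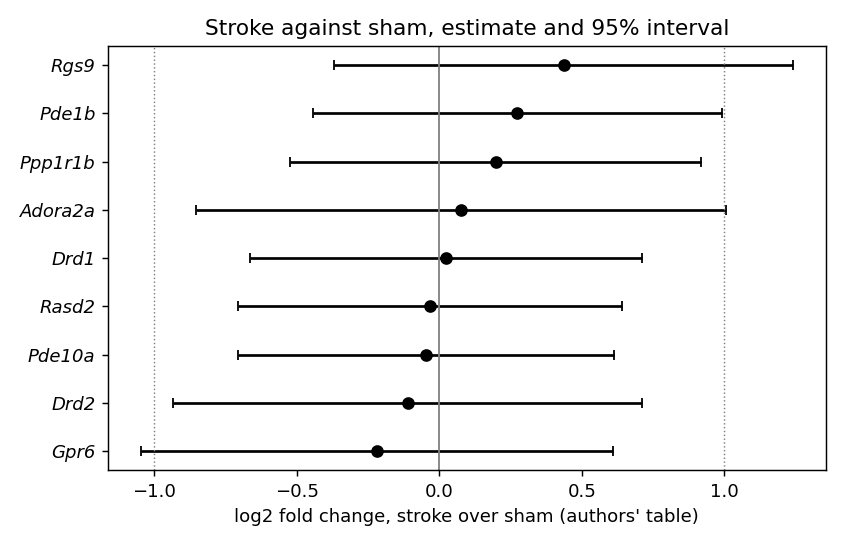
Log2 fold change of stroke over sham for the 9 genes in the authors' deposited table, with bars for the 95% interval and dotted lines at a 2-fold fall and a 2-fold rise. Every interval includes 0, that of Gpr6 reaches past a 2-fold fall, and those of Rgs9 and Adora2a reach past a 2-fold rise.

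The intervals were wide beside those of other genes. SE values of the 9 genes on the log2 scale were 0.34 to 0.47, against a median of 0.26 among 9264 tested genes with means in the same range, of which 15.8% had an SE at or above the lowest of the 9. The data therefore bound the change of each gene rather than show that it was absent, with interval ends between a fold of 0.484 and a fold of 2.36.

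The stroke libraries differed from each other by more than the group means did. Stroke A was the highest and stroke C the lowest of the stroke libraries in 9 of 9 genes, an order found in 2398 of 10209 recovered genes with a mean of at least 100 (23.5%). The ratio of the highest to the lowest stroke library ranged from 1.77 for Drd1 to 2.78 for Rgs9, against a median of 1.22 over those 10209 genes, of which 588 (5.76%) reached 1.77. Averaged over the 9 genes as log2 values centred per gene, sham A was at 0.13, sham B at -0.14, and stroke A, B and C at 0.66, -0.07 and -0.59. As a fold, the average was 2.37 times higher in stroke A than in stroke C. The largest deviation of a gene from this average was 0.24 log2 in the stroke libraries and 0.57, for Drd1, in the sham libraries. The average includes the genes themselves, and such deviations were not measured for other sets of genes. The size factors of stroke A and stroke C were 1.16 and 1.12.

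**Figure D4:**
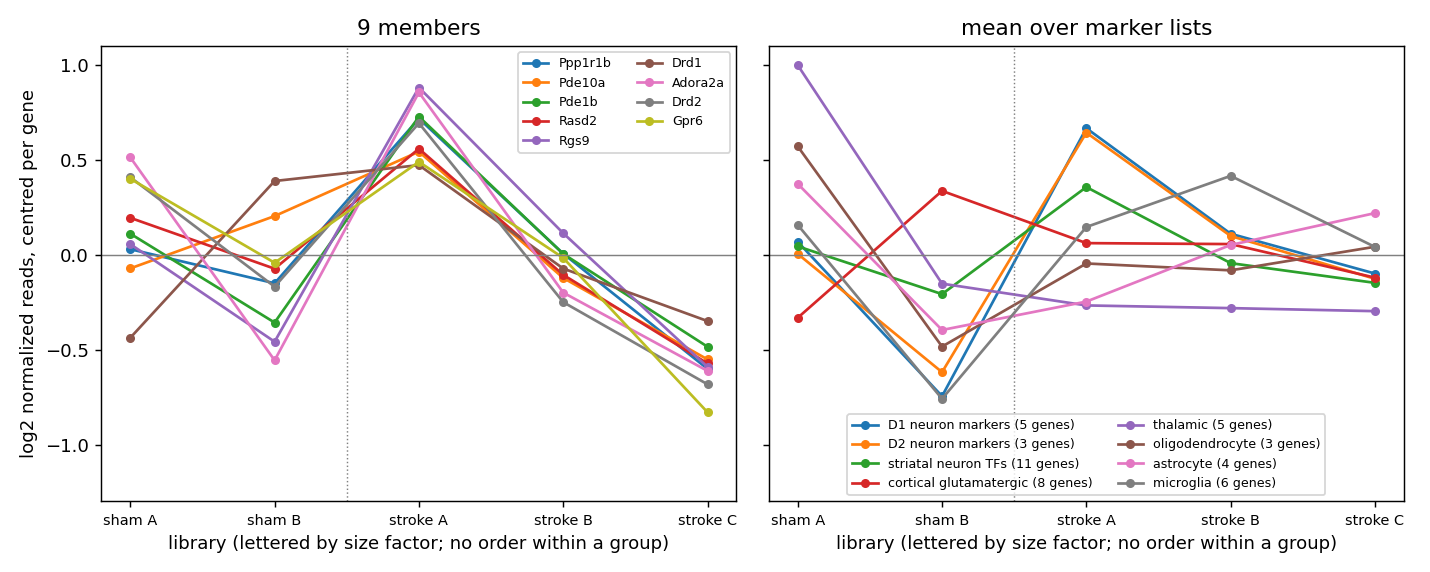
Log2 normalised reads centred per gene (vertical axis) in each library for the 9 genes (left) and averaged over lists of marker genes (right); lines join values of one gene or list and imply no order. The 9 genes run together from 0.66 on average in stroke A to -0.59 in stroke C, while thalamic and oligodendrocyte markers are highest in sham A.

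Leaving out single libraries turned the direction of every gene at least once. Without stroke A all 9 limma estimates were negative, from -0.60 (Gpr6) to -0.038 (Rgs9), and without stroke C all 9 were positive, from 0.057 (Gpr6) to 0.70 (Rgs9). Without sham A, 6 of 9 were positive (-0.37 to 0.59), and without sham B 4 of 9 (-0.52 to 0.45). In none of these fits did any of the 9 pass the limma test, where the lowest adjusted p over the 9 was 0.3998. Of all 15145 genes, 17.3% were called without sham A and 3.06% without sham B.

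Lists of other projection neuron markers were also higher in stroke A than in stroke C. Their median ratios were above those of the lists of pan-neuronal, cortical, thalamic and glial markers, a difference that was not tested. Among the 5 direct pathway markers, 4 had the order A, B, C in the stroke libraries, with a median ratio of stroke A to stroke C of 1.80. The 11 striatal projection neuron transcription factors had a median ratio of 1.54, with that order in 7. For the 3 indirect pathway markers the median ratio was 1.49, with that order in 1 of 3. The median ratio was 1.29 for 3 pan-neuronal markers, with that order in 2. The order was thus not confined to projection neuron markers. It was also found in 53 of the 85 recovered genes of the wider pathway described below, beside 23.5% of recovered genes with a mean of at least 100. Among cortical markers it was found in 2 of 8, among thalamic markers in 1 of 5, and among oligodendrocyte, astrocyte and microglia markers in 0. The median ratio was 1.144 for 8 cortical markers, 0.983 for 5 thalamic markers, 0.993 for 3 oligodendrocyte markers, 0.890 for 4 astrocyte markers and 1.28 for 6 microglia markers. Gfap, which encodes an intermediate filament of reactive astrocytes, had 3115, 3682 and 9744 normalised reads in stroke A, B and C, and 7492 and 2259 in sham A and B. The other astrocyte markers with recovered reads showed no such rise to stroke C. In stroke A, B and C, Aldh1l1 had 1392, 1438 and 1535, Aqp4 had 2231, 3303 and 2558, and Gja1 had 3627, 4589 and 3342. Microglia markers (6 genes) summed to 5002 and 3040 in sham A and B, and to 5615, 6437 and 5159 in stroke A, B and C, all above both sham sums. Whether the cell makeup or the dissected tissue of these libraries bears on the 9 genes was not tested.

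Neuropeptide genes that mark the projection neuron classes had larger estimates than the 9 signalling genes. Tac1, the substance P precursor of direct pathway neurons, had 876 and 590 normalised reads in sham and 2109, 1596 and 987 in stroke, with every stroke library above both sham libraries, as in 12.8% of recovered genes. Its log2 fold change in the authors' deposited table was 1.09 (SE 0.36), which missed the threshold (DESeq2, adjusted p = 0.105). Pdyn, the dynorphin precursor of the same neurons, had 865 and 478 in sham and 1814, 1403 and 1038 in stroke, a log2 fold change of 1.08 (SE 0.35; the authors' deposited table, DESeq2 adjusted p = 0.0972). Penk, the enkephalin precursor of indirect pathway neurons, had 5541 and 3592 in sham and 12170, 6407 and 3841 in stroke. Its log2 fold change was 0.71 (SE 0.44). Of the 5 direct pathway markers 0 were called in the authors' deposited table and 2 had an unadjusted p below 0.05, Tac1 and Pdyn, beside 1.56% and 10.5% of all tested genes. The direct pathway markers that are not neuropeptide genes differed in direction. Slc35d3 was at a log2 fold change of 0.61 (SE 0.41), Isl1 at 0.32 (SE 0.52) and Ebf1 at -0.38 (SE 0.39). By limma neither Tac1 nor Pdyn was called with all 5 libraries (adjusted p = 0.642 for both). The limma log2 estimate of Tac1 was 1.05, and 1.34 without sham A and 0.77 without sham B, that of Pdyn 1.103, and 1.53 and 0.68. Without sham A both passed the limma test (adjusted p = 0.0486 for Tac1 and 0.0169 for Pdyn), where 17.3% of all genes did. Penk was at 0.58 by limma, and between 0.15 (without stroke A) and 0.98 (without stroke C). The difference between these genes and the 9 was not tested.

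Compared per kilobase of annotated exon, the 9 genes covered a wide range of levels. The mean of the normalised reads per kilobase over the 5 libraries was 3005 for Ppp1r1b, 1278 for Rasd2, 1215 for Pde1b, 658 for Pde10a, 393 for Drd1, 344 for Rgs9, 328 for Drd2, 282 for Adora2a and 149 for Gpr6. Ppp1r1b exceeded Rasd2 in 5 of 5 libraries, and their ranges did not overlap. Rasd2 and Pde1b could not be ordered, with Rasd2 the higher in 3 of 5 libraries, and neither could Drd1 and Rgs9 or Rgs9 and Drd2, each pair in the stated order in 3 of 5. Drd2 was above Adora2a, and Adora2a above Gpr6, in all 5 libraries, although the ranges of each pair overlapped between libraries. Exon lengths took all annotated transcripts together, from 1 for Drd2 and Gpr6 to 14 for Pde10a, so exons that these tissues do not use lower this measure.

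The pattern of the 9 across the 5 libraries was also compared with that of other genes. Likeness was measured as Pearson's r over the 5 libraries between a gene's log2 normalised reads and the average of the 9, among 10200 other genes with a mean of at least 100, and is a description over few points that share their libraries. Of the 9 themselves, Rasd2 (0.991) and Ppp1r1b (0.989) lay closest to their own average, which includes them, and Drd1 (0.545) farthest. The 5 most similar other genes were Onecut2 (0.991), Chmp2a (0.988), Stim1 (0.986), Nub1 (0.980) and Fam84b (0.979). Onecut2, a homeobox transcription factor gene, had an SD of 0.39 log2 over the libraries, close to that of Rasd2 (0.42), with 437, 266 and 207 normalised reads in stroke A, B and C. Chmp2a varied much less, with an SD of 0.06 log2. In all, 67 genes (0.657%) had an r of at least 0.9, which 7 of the 9 reached, and 1120 (10.98%) had an r above that of Drd1. The 67 included Rxrg (0.944), a retinoid receptor gene of striatal neurons. Rxrg had 403 and 312 normalised reads in sham A and B, and 430, 310 and 253 in stroke A, B and C.

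The wider pathway was covered by 8 lists of 111 genes, of which 110 were tested. In the authors' deposited table (DESeq2) 0 were called higher and 0 lower, where 1.56% of all tested genes were called. An unadjusted p below 0.05 was found in 9 of 110 (8.18%), beside 10.5% of all tested genes, and the median log2 fold change was 0.12, beside -0.02 over all tested genes. Reads per library were recovered for 85, of which limma called 0 and 9 had an unadjusted p below 0.05, beside 7.49% of all recovered genes. Without sham A limma called 10 of the 85 (6 higher, 4 lower; 17.3% of all genes), and without sham B 3 (2 higher, 1 lower; 3.06%). Groups did not overlap in 19 of the 85, beside 24.7% of all recovered genes.

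Among receptors outside the 9, Drd5 was at a log2 fold change of 0.30 (SE 0.32), and Adora1 at 0.14 (SE 0.26), in the authors' deposited table. Adora1 encodes the adenosine receptor that lowers cyclic AMP. The 6 other dopamine and adenosine receptor genes had a median of 0.22, and the 11 tested receptor genes of other transmitters a median of 0.12, from Oprm1 at -0.69 (SE 0.41) to Oprd1 at 0.69 (SE 0.30), which encode the mu and delta opioid receptors. Drd3 and Drd4 had the largest estimates of their list, 1.62 (SE 0.64) and 2.27 (SE 0.93), at means of only 34.7 and 17.3 normalised reads (DESeq2, adjusted p = 0.236 and 0.267), and are named here after their values were seen. By limma Drd3 was at 1.73, and at 2.40 without sham A and 1.05 without sham B, and without sham A it passed the limma test (adjusted p = 0.0115).

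Of the 18 genes for G proteins, adenylyl cyclases and protein kinase A, 15 had a positive log2 fold change, beside 47.2% of all tested genes. The median of the 18 was 0.18. Pan-neuronal markers were positive in 8 of 8, with a median of 0.15, and cortical glutamatergic markers in 5 of 9, with a median of 0.13. Gnal, the gene of the Golf alpha subunit that couples DRD1 and ADORA2A to adenylyl cyclase, had 7809 and 7153 normalised reads in sham and 12599, 10344 and 8093 in stroke. All 3 stroke values were above both sham values, as in 12.8% of recovered genes. The log2 fold change of Gnal in the authors' deposited table was 0.47 (SE 0.25, DESeq2 adjusted p = 0.517). Its limma estimate stayed positive without any 1 library, from 0.29 to 0.61. Ric8b, which encodes a chaperone of that subunit, was at -0.11 (SE 0.19). The 14 RGS genes and partners of RGS9 had a median of 0.18, and their most and least positive estimates (means of 100 or more) were Rgs16 at 0.78 (SE 0.41) and Rgs11 at -0.78 (SE 0.47). By limma Rgs16 moved from 0.91 to 1.56 without sham A and 0.26 without sham B, and Rgs11 from -0.54 to 0.32 and -1.40.

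The 16 other phosphodiesterase genes split evenly, 8 positive and 8 not, with a median of -0.01. Pde1a, the most abundant of them, was at 0.29 (SE 0.25) and Pde4b at 0.27 (SE 0.28) in the authors' deposited table. The 19 phosphatase and kinase genes around DARPP-32 had a median of 0.09. Ppp1cc, which encodes a catalytic subunit of protein phosphatase-1, had 217 and 766 normalised reads in sham and 1356, 1189 and 982 in stroke, a log2 fold change of 1.26 (SE 0.46) that missed the threshold (DESeq2, adjusted p = 0.182). The limma estimate of 1.51 became 0.61 without sham A and 2.42 without sham B, where it passed the limma test (adjusted p = 0.00119). Ppp3ca, the calcineurin catalytic subunit gene, was at -0.03 (SE 0.28). The 11 genes of cyclic GMP and calmodulin signalling had a median of -0.05, and the 15 of Ras, ERK and mTOR signalling around Rhes a median of 0.21. In the last list Rasd1, the closest relative of Rasd2, had 379 and 158 normalised reads in sham and 559, 534 and 203 in stroke. Its log2 fold change was 0.68 (SE 0.51), and by limma 0.68, with 1.31 without sham A and 0.053 without sham B. Its sham and stroke values overlapped, as did those of Rasd2.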

How the data were processed

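RNA was sequenced from 2 sham and 3 stroke libraries, grouped by the treatment given in the labels. Per the submitters' processing notes, the tools were STAR 2.5.2b, featureCounts 1.5.1 and DESeq2 1.14.1, with build GRCm38. The notes, as held here, name no annotation release and no strand setting. The deposited table, per its header, holds for each gene a mean signal (read counts divided by size factors), a log2 fold change with its SE, a Wald statistic (a score), and a p-value with its Benjamini-Hochberg adjusted p-value. Calls used the authors' adjusted p below 0.05.

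A count test had been planned only in case the file held counts per library, which it does not, so the authors' test was the main one. Whole reads were searched for as sets of 5 counts that give the deposited mean, fold change and SE (Python 3.11.15, numba 0.67.0), for genes with a mean of 10 to 3000, and to 10000 for listed genes. Genes with 1 read in 1 library gave 5 values of the mean, with a positive fold change at 3 and a negative at 2, so positive means higher in stroke. Where several sets were left, as for Rgs9, Rasd2, Pde1b, Pde10a and Ppp1r1b, the set had to meet the relation of dispersion to mean, to within 0.003 in log dispersion. Of 15343 genes tried, 15145 were recovered (86.9% of those tested by the authors). On simulated reads for stroke against sham, 202 of 202 genes came out right, and 0 of 190 with a mean shifted on purpose were accepted.

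The recovered reads were fitted with limma 3.58.1 (R 4.3.3; trend, robust) as log2(normalised reads + 1). Tested on simulated data for the same comparison over 15145 genes, it called 17% of 2-fold and 64% of 4-fold changes and 0.0335% of unchanged genes. Fold changes from limma are on that scale. Gene positions are from GENCODE M21. The 9 genes and all lists were chosen with earlier results of these data known. Genes to name were chosen from each list as up to 3 called genes, the 2 most abundant uncalled genes and the highest and lowest fold change at a mean of at least 100. For likeness, the 5 genes with the highest r were named. Not all genes so chosen are described above. Those left out include called genes of the midbrain, thalamic, hypothalamic and choroid plexus lists. A result on 1 listed gene is not reported here.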

Additional observations from a re-analysis of the deposited data

How the results depend on the processing

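None of the 9 genes or of the 110 pathway genes was called in the authors' table under any alternative run: adjustment over every gene with a read, over genes whose mean reached 5 CPM, or a test against a fold of 1.5. The count over all genes fell from 272 to 187 in the first of these, to 142 with the CPM minimum and to 45 against the fold of 1.5, which is the stricter test by construction. By limma on recovered reads 3 genes were called, and 3 again with pseudocounts of 0.5 or 5, with scaling to summed recovered reads, and with a mean of at least 50 (chosen after seeing the data). Leaving out 1 library gave 1 to 2617 calls, with 2617 without sham A, 464 without sham B and 1 without stroke A; the cause was not tested. None of the 9 was called in any of these fits. Of the 85 pathway genes with recovered reads, 0 to 10 were called in the leave-one-out fits, 10 without sham A and 3 without sham B. The 9 genes' limma log2 fold changes over the leave-one-out fits ran from -0.50 to 0.57 for Adora2a, -0.37 to 0.45 for Drd1, -0.59 to 0.10 for Drd2, -0.60 to 0.057 for Gpr6, -0.40 to 0.14 for Pde10a, -0.12 to 0.49 for Pde1b, -0.24 to 0.42 for Ppp1r1b, -0.40 to 0.17 for Rasd2 and -0.038 to 0.70 for Rgs9. Of these 45 values of the 9 genes, 15 turned their direction, none of them passing the test. With scaling to summed reads Adora2a was at -0.00044, against 0.04. No paired analysis was possible because the recovered libraries carry no replicate numbers. TMM scaling and a fit with no minimum mean were not run, since reads were recovered from a mean of 10 upwards.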

Other observations

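Interneurons, the local neurons of the striatum, were represented by 8 marker genes, and none passed the authors' test (DESeq2, 0 called, 2 with an unadjusted p below 0.05; limma on recovered reads, 0 and 2). Over all genes, 1.56% were called and 10.5% had such a p in DESeq2, and 0.0198% and 7.49% in limma. The median log2 fold change of the 8 markers was 0.50 in the authors' deposited table. Of the 8, 7 were positive, beside 47.2% of all tested genes and 8 of 8 pan-neuronal markers. Slc5a7, the choline transporter gene of cholinergic interneurons, had 238 and 237 normalised reads in sham A and B and 436, 308 and 389 in stroke A, B and C, a log2 fold change of 0.67 (SE 0.28; DESeq2, adjusted p = 0.278). Pvalb, the parvalbumin gene of fast-spiking interneurons, had 979 and 582 in sham and 577, 472 and 409 in stroke, a log2 fold change of -0.68 (SE 0.32; DESeq2, adjusted p = 0.380). In both genes the groups did not overlap, as in 24.7% of recovered genes, and for Pvalb only by the small gap between sham B and stroke A. Without sham A the limma estimate of Pvalb moved from -0.65 to -0.27, and that of Slc5a7 was 0.65 with and without it. All 8 markers were higher in sham A than in sham B, and how far tissue makeup bears on them was not tested.

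The 11 transcription factor genes of striatal projection neurons had a median log2 fold change of 0.11. Of the 11, 9 were positive, beside 47.2% of all tested genes and 8 of 8 pan-neuronal markers. In DESeq2 0 were called and 0 had an unadjusted p below 0.05, beside 1.56% and 10.5% of all tested genes. By limma the counts were also 0 and 0, beside 0.0198% and 7.49% of recovered genes. The negative estimates were those of Six3 at -0.19 (SE 0.47) and Rxrg at -0.11 (SE 0.33). By limma Foxp1 was at 0.16, and at -0.25 without sham A. Foxp1 and Meis2, the most abundant of the 11, were at 0.14 (SE 0.34) and 0.23 (SE 0.25), from the authors' deposited table. Bcl11b, which encodes CTIP2, had 3406 and 4781 normalised reads in sham A and B and 6462, 4970 and 3977 in stroke A, B and C. Its values in stroke therefore had the same order as those of Ppp1r1b, whereas it was lower in sham A than in sham B, as Drd1 was.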
